A study of Rattus norvegicus with 9 samples.

Results

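Isolated rat ureteric buds grown with heregulin were set against buds grown with purified pleiotrophin, using the 3 HRG arrays and the 3 PTN arrays out of 9 arrays in the series. The ureteric bud is the epithelial tube that branches inside the embryonic kidney and becomes the collecting duct system. The buds came from Sprague-Dawley rats at embryonic day 13 and were cultured over 4 days in growth factor reduced Matrigel mixed with type 1 collagen, and RNA pooled from 3 buds made each sample. HRG medium held 500 ng/ml of human recombinant heregulin alpha, which binds ErbB receptors. PTN medium held pleiotrophin at about 3 µg/ml. It is a secreted protein with affinity for heparin, and here was isolated from the culture medium of BSN cells, a line from metanephric mesenchyme. The remaining group, BSN, received that conditioned medium itself. All media shared 250 ng/ml FGF1 with 125 ng/ml GDNF, which signals through Ret, and no group received only these. A difference between HRG and PTN is therefore a difference between 2 media, and which of them moved a gene cannot be told apart. The series title counts PTN as a branching culture, while the PTN samples are described as not branching, so the groups are named here by medium.

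Epithelial cells that divide, as at a growing tube's tip, need deoxynucleotides, histones, membrane lipid and matrix, while cells that stop dividing commonly express more of the machinery for transport, detoxification and the burning of fuel. Fatty acid oxidation breaks fatty acids down in mitochondria, glycolysis breaks glucose down in the cytosol, and glutathione transferases attach glutathione to reactive compounds. Heregulin acts through receptor tyrosine kinases of the ErbB family, and pleiotrophin binds heparan and chondroitin sulfate chains and receptors that carry them.

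Values are array signals on a linear scale in arbitrary units, and signals of different genes are not comparable. A gene counted as measured if 3 or more of the 9 arrays had it above their own 40th percentile, so it could pass through 1 group alone. A gene rose or fell in HRG when limma's adjusted p was under 0.05, and folds are on the scale of log2(signal + 16). No fold is given where a group's mean lay below its own mean 40th percentile, 691 in HRG and 632 in PTN, and such a mean is called near background. Of 10106 probe sets tested, 2603 (25.8%) passed, 1423 (14.1%) higher and 1180 (11.7%) lower in HRG. For 7458 genes, each taken by its brightest probe set, 2000 (26.8%) passed, 1094 (14.7%) higher and 906 (12.1%) lower, with a median log2 change of 0.08. These last shares are the background for every gene group that follows. Differences of 2-fold or more numbered 377 higher and 371 lower probe sets.

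Arrays of HRG correlated at 0.971 to 0.979 with each other, and PTN replicates 2 and 3 at 0.979. PTN replicate 1 correlated at 0.946 and 0.947 with these, and 3109 probe sets passed without it. Without HRG replicate 1 the count was 1882, with 948 higher. Of the markers of the labelled tissue, Krt8, Krt18, Cdh1 and Epcam, keratins and adhesion proteins of simple epithelium, were above the 40th percentile in both groups, with Epcam at 61147 ± 7133 in HRG and 55695 ± 3073 in PTN (SD, n = 3). These markers were not level between the media. Of 12 measured genes on the list of ureteric epithelial identity 7 rose and 1 fell in HRG, with a median log2 change of 0.69. Krt19 and Krt7 rose 4.84-fold and 4.24-fold, and Lhx1 fell 2.47-fold. Pax8 and Calb1, also on that list, were not measured, and the list's summed signal was 192016 to 202861 in HRG and 132134 to 152876 in PTN. Of 4 mesenchyme and nephron progenitor markers on the array (Gdnf, Wt1, Itga8 and Meox2) none was measured, and their summed signal was 1052 to 1179 in HRG and 695 to 1008 in PTN. Summed signals of 13 stromal markers (5324 to 6615 against 6027 to 6596), 10 endothelial markers (3312 to 4108 against 3482 to 3827) and 13 blood markers (6950 to 8550 against 5988 to 8042) overlapped between HRG and PTN. The sum of 11 neuronal and glial markers did not, at 5439 to 6300 in HRG and 8516 to 10743 in PTN (exact two-sided permutation p = 0.1, the smallest that 3 against 3 arrays can give). Control probes for the 2 ends of the actin transcript, whose 3'/5' ratio grows as RNA is shortened, gave 25.2 ± 5.86 in HRG and 16.6 ± 1.4 in PTN (SD, n = 3; exact permutation p = 0.1), and that of GAPDH was 2.92 ± 0.802 and 5.14 ± 1.98 (0.3). The part of these differences in the results below was not tested. In pooled buds, fewer cells of a type and less RNA per cell cannot be told apart.

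Genes are called bright where their mean log2 signal over all 9 arrays was above the median of the tested probe sets. Among bright genes with separate arrays, the largest rise in HRG was that of Tspan8, a tetraspanin, at 11.4-fold. The largest falls were those of Ret, the receptor of GDNF, at 20.3-fold and Crym, a thyroid hormone-binding protein, at 18.2-fold. Dimmer genes stand outside this ranking, among them Sprr1a, Akr1b8 and Lama4, given below, and Sprr1a differed more than Tspan8. The 4 genes given as markers of this comparison, H19, Lgals3, Top2a and Col9a1, were all among the 12 largest rises or falls. They were named with earlier results of these data known, so their rank and separation are no independent evidence. H19, a maternally expressed imprinted non-coding RNA, read 70074, 51637 and 48879 on the HRG arrays and 5563, 8178 and 5232 on the PTN arrays. It was 9.04-fold higher in HRG (adjusted p = 1.53e-07). Lgals3, the carbohydrate-binding galectin-3, read 12424, 10759 and 11876 against 1039, 1682 and 1643. For both genes every HRG array was above every PTN array. Top2a, the topoisomerase that untangles replicated chromosomes, read 2926, 4214 and 3439 in HRG and 17458, 15962 and 17447 in PTN. Col9a1, a chain of the fibril-associated collagen IX, read 1873, 2053 and 1512 against 22412, 22285 and 20676, and fell by 3.59 on the log2 scale (SE 0.14, adjusted p = 4.14e-09). The groups did not overlap for either, and BSN lay between them for all 4 genes, with means of 35547, 3423, 8481 and 8894 in the order named. Ret had 918 ± 171 in HRG and 18756 ± 850 in PTN (SD, n = 3). Of 6 measured genes of the ureteric tip, Ret among them, 5 fell and none rose, with a median log2 change of -1.55. The falls numbered 4 to 5 with an array left out.

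**Figure D1:**
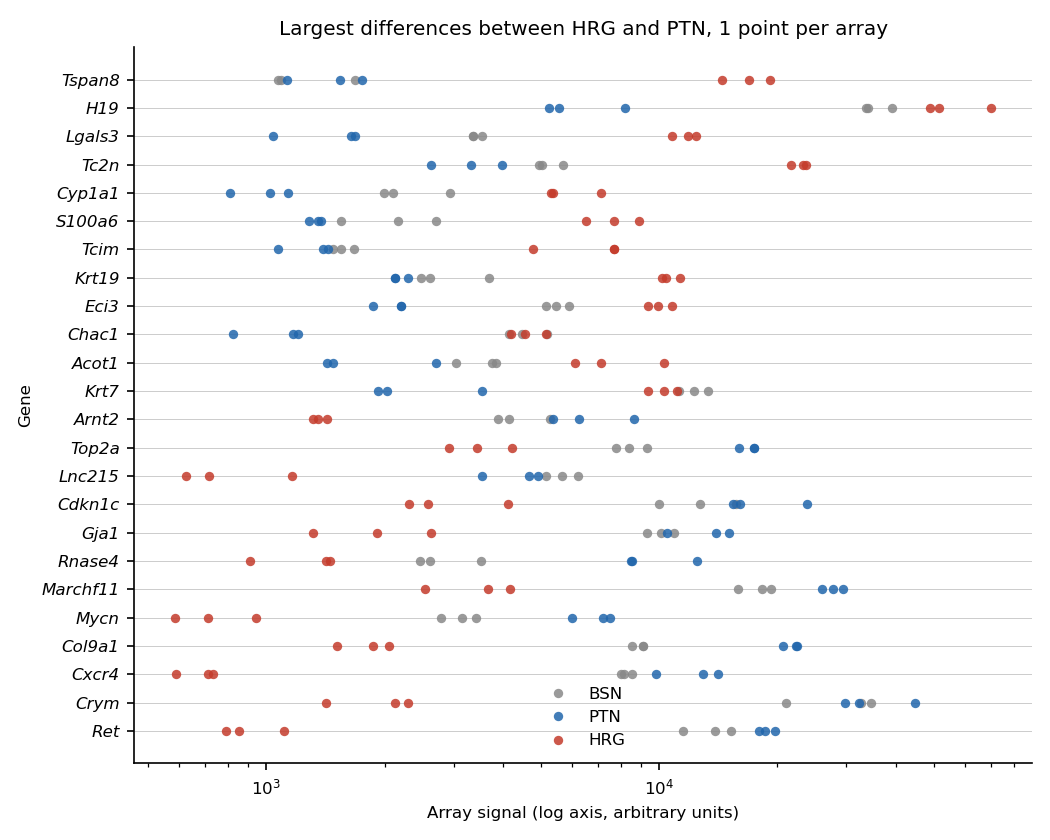
Array signal on a log axis for the 12 largest rises and 12 largest falls in HRG among brightly measured genes, 1 point per array, with HRG in red, PTN in blue and BSN in grey. Red and blue points do not overlap in any row, which the choice of genes required. H19 lies between 48879 and 70074 in HRG and between 5232 and 8178 in PTN.

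Genes of mitosis were lower in HRG almost throughout, with the largest share called among the 61 lists. Of 60 listed genes 35 were measured, 32 fell in HRG, none rose, and the median log2 change was -1.21 against 0.08 over all genes. Leaving out single arrays gave 31 to 33 falls. Spc25, a subunit of the kinetochore complex that grips microtubules, read 2704, 2982 and 2759 in HRG and 9284, 9876 and 8659 in PTN, 3.28-fold lower (adjusted p = 2.21e-06). All PTN arrays were above all HRG arrays. Tacc3, a spindle protein, fell 4.02-fold, Bub1b, a checkpoint kinase, 4.16-fold, and Aurkb, the kinase of the chromosomal passenger complex, 2.94-fold. Mki67, the usual histological marker of dividing cells, fell 2.13-fold. Cenpe, a kinetochore motor, had 122 ± 117 in HRG, near background, and 965 ± 280 in PTN. The members that did not pass were Pttg1, Birc5 and Smc4, with log2 changes of -0.65, -0.58 and 0.11.

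DNA replication genes fell less evenly. Of 31 measured, 18 fell (15 to 20 with 1 array left out), none rose, and the median was -0.58. Mcm6, part of the replicative helicase, read 2275, 3973 and 3178 in HRG and 11798, 13562 and 13846 in PTN, 4.24-fold lower (adjusted p = 1.54e-05). The arrays were again fully separate. Other helicase subunits fell by smaller amounts, Mcm5 by 2.87-fold, Mcm4 by 2.23-fold, Mcm3 by 2.07-fold and Mcm2 by 1.8-fold, while Mcm7 had a log2 change of -0.44 and did not pass. Rfc4, of the clamp loader, fell 3.0-fold and Gins1, which joins the helicase, 2.91-fold. Enzymes that supply DNA's building blocks moved the same way. Dut, which removes dUTP, read 10795, 12088 and 9519 in HRG and 22576, 24389 and 33175 in PTN. Rrm1, the large subunit of ribonucleotide reductase, fell 1.96-fold and Tyms, thymidylate synthase, 1.89-fold, while Tk1, the last of 4 measured in this list, did not pass (log2 change -0.21).

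Promoters of these groups were searched because many of their members moved together and textbooks give the groups different motifs. Those of Top2a and Mcm6 are printed as examples. Sequences are RefSeq's on GRCr8, from 250 bases before to 50 bases after the start of the gene, read on the gene's strand, with motif matches in capitals. The letters searched on both strands were CCAAT, the box bound by NF-Y, TTTGAA, the cell cycle genes homology region of G2 and mitosis genes, and TTTCCCGC and TTTGGCGC, forms of the E2F site. None of these motifs contains another. The Top2a promoter, at chr10:84473044-84473343 on the minus strand, holds 4 CCAAT boxes and 1 homology region, all as reverse complements (ATTGG and TTCAAA). The Mcm6 promoter, at chr13:42404303-42404602 on the minus strand, holds an E2F form and 2 CCAAT boxes. Not every promoter of the groups was like these. That of Rfc4, of the replication list, held no E2F form and no CCAAT box. That of Cenpe, of the mitosis list, held 1 CCAAT box and no homology region.
Top2a: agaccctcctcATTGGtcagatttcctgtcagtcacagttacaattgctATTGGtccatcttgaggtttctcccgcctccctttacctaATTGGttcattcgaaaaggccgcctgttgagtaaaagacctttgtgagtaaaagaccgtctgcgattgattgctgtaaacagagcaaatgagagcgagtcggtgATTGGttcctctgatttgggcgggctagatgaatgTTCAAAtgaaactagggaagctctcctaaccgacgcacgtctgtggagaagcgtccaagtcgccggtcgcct
Mcm6: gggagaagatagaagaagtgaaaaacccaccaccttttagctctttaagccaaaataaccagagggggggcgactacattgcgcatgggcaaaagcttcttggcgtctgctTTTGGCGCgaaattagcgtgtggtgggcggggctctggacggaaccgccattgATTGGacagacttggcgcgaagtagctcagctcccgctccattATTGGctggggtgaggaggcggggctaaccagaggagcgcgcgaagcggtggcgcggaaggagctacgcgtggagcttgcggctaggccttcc

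TTTGAA stood in 23 of 32 mitosis promoters (71.9%) and 1 of 27 replication promoters (3.7%), against 18.1% of all 27457 promoters of this length and 693 of the 6288 measured genes matched to a promoter. Each E2F form stood in 5 of 27 replication promoters (18.5%) and in none of the mitosis promoters. The 2 forms stood in 1.03% and 0.521% of all promoters and in 2.05% and 0.875% of those of measured genes. CCAAT was present in 78.1% and 63.0% of the mitosis and replication promoters, in 37.7% of all and in 37.9% of those of measured genes. It was not particular to division genes. It stood in 13 of 16 cholesterol synthesis promoters (81.2%), 7 of 13 glutathione transferase promoters (53.8%) and 5 of 22 of the Nrf2 list (22.7%). These are matches of letters, not measured binding sites.

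Chromatin genes were also lower in HRG in part. Of 17 measured histone and chromatin genes 11 fell and none rose (median -0.66). Ezh2, the methyltransferase that marks silent chromatin, read 2638, 2890 and 3105 in HRG and 8849, 9164 and 8660 in PTN. Chaf1a, a histone chaperone at the replication fork, fell 2.71-fold. Among 22 G1 regulators 7 fell and 4 rose, and 2 Myc family members were among them. Mycn read 710, 943 and 586 in HRG and 6002, 7216 and 7487 in PTN, whereas Myc read 1904, 2456 and 2515 in HRG and 1011, 519 and 702 in PTN. The media did not overlap for either gene, and the order of the media was opposite. Ccnd1, the cyclin that growth factors induce, fell 2.91-fold, and Ccne1 and Ccne2 fell 2.03-fold and 2.15-fold. Cell cycle inhibitors moved in opposite directions: Cdkn1c, an imprinted inhibitor of cyclin-dependent kinases, fell 6.18-fold, and Rb1, the retinoblastoma protein that restrains E2F, rose 1.96-fold.

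**Figure D2:**
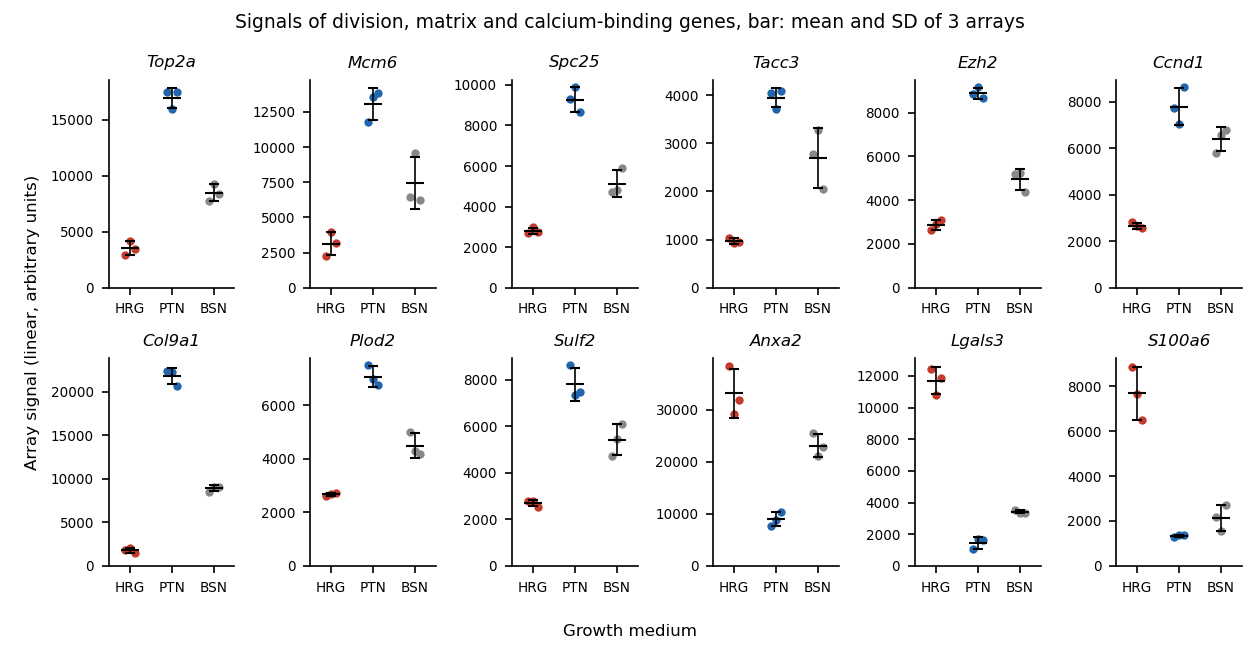
Linear array signal in HRG, PTN and BSN for 12 genes of division, matrix and calcium binding, 1 point per array, with a bar at the mean and whiskers of 1 SD (n = 3). Top2a, Mcm6, Spc25, Tacc3, Ezh2 and Ccnd1 are lowest in HRG, with BSN between, and Anxa2, Lgals3 and S100a6 are highest there.

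Several enzymes of fatty acid oxidation were higher in HRG. Of 21 fatty acid oxidation genes, all on the array, 18 were measured, 11 rose in HRG, none fell, and the median log2 change was 0.67. Rises numbered 9 to 11 with 1 array left out and 9 after centring arrays on the median of all probe sets. Acadl, the long-chain acyl-CoA dehydrogenase, read 13512, 18543 and 15766 in HRG and 4037, 5157 and 4597 in PTN, 3.45-fold higher (adjusted p = 8.67e-06). Hadh, the hydroxyacyl-CoA dehydrogenase of a later step, read 9756, 11195 and 9838 against 4219, 4852 and 4870. Both genes had separate arrays, with BSN means of 8060 and 6174. Cpt1a, which commits fatty acids to mitochondria, rose 1.77-fold on its brightest probe set, with a second at 0.42 that did not pass, and Decr1 and Eci2, needed for unsaturated chains, rose 1.9-fold and 2.15-fold. Eci3, another enoyl-CoA isomerase, and Acot1, an acyl-CoA thioesterase, were among the 12 largest rises, at 4.78-fold and 4.25-fold. The trifunctional protein's subunits Hadha and Hadhb did not pass (0.33 and 0.15). Ppargc1a, a coactivator of mitochondrial and oxidation genes, rose 1.95-fold from 1211 ± 152 to 2378 ± 242 (SD, n = 3). Its list, mitochondrial biogenesis and transport, had 4 rises (2 to 4 with an array left out) and 1 fall among 23 measured genes. The median of that list was 0.02. The fall was that of Tfam, a mitochondrial transcription factor, by 1.52-fold (adjusted p = 0.0294), a call lost under 6 alternatives. For Cpt1a and Ppargc1a the BSN means, 9005 and 2350, were near the HRG means of 9002 and 2378.

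Of 54 measured respiratory chain genes, 14 rose and 1 fell, with a median of 0.29. The fall did not pass without BSN replicate 1, PTN replicate 1, PTN replicate 3 or any one of the HRG replicates. The number of rises rested on single arrays, with 6 without HRG replicate 1, 8 without PTN replicate 2 and 9 without PTN replicate 3, and it was 7 after centring on all probe sets and 22 with array weights. Cox6b1, of cytochrome oxidase, had 17863 ± 1366 in HRG and 9226 ± 1502 in PTN, Ndufv1, of complex I, rose 1.98-fold, and Atp5f1e, of ATP synthase, 2.02-fold. In the citric acid cycle 5 of 26 measured genes rose and none fell, a share of rises near the 14.7% of all genes. The rises numbered 9 without PTN replicate 1 and 3 after centring on all probe sets. Idh3b rose 1.73-fold and Suclg2 1.58-fold. Slc25a1, the carrier that exports citrate from mitochondria, read 12299, 10318 and 14322 in HRG and 3438, 3206 and 3565 in PTN, 3.58-fold higher (adjusted p = 2.64e-06). No HRG array came near the PTN arrays.

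Of 18 measured glycolysis genes 2 rose, 2 fell, and the median was -0.08. The split was 1 and 4 after median centring, and none and 5 after centring on all probe sets. Without PTN replicate 3 none rose and 5 fell, without HRG replicate 1 there was 1 of each, and without HRG replicate 2, HRG replicate 3 or PTN replicate 1 a single gene rose. Eno1, enolase, read 3973, 3677 and 4504 in HRG and 18561, 11018 and 11500 in PTN, 3.29-fold lower (adjusted p = 7.7e-05). Pygl, liver-type glycogen phosphorylase, read 8882, 6624 and 7102 against 33101, 28152 and 29172, 4.02-fold lower. PTN arrays exceeded every HRG array for both. Pygl was the only fall among 12 measured genes of gluconeogenesis and glycogen, whose median was 0.16. The only rise there was that of Phka1, of phosphorylase kinase, by 1.47-fold, with a second probe set at 0.29 that did not pass. Leaving out an array gave at most 2 of each. Ldha, which makes lactate, was 1.55-fold lower (adjusted p = 0.0133), a call lost without HRG replicate 1 (0.0511) or HRG replicate 2 (0.0514). Idh1, a cytosolic source of NADPH, rose 1.64-fold.

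Among lipid genes, several of triglyceride handling were higher in HRG, while fatty acid synthesis genes moved both ways. Of 22 triglyceride and phospholipid genes measured, 12 rose (9 without HRG replicate 1) and 3 fell (1 without PTN replicate 2), with a median of 0.61. Dgat2, which makes triglyceride, read 4900, 5254 and 5255 in HRG and 2236, 2151 and 2044 in PTN, 2.39-fold higher (adjusted p = 7.17e-05). The arrays within each medium differed little beside the gap between media. Plin2 and Plin3, coat proteins of lipid droplets, rose 2.03-fold and 2.24-fold, and Pla2g4a, the phospholipase that releases arachidonic acid, 2.46-fold. Lpl, lipoprotein lipase, had 1857 ± 285 in HRG and 384 ± 73.8, near background, in PTN. Gpd2, the mitochondrial glycerol phosphate dehydrogenase, fell 1.89-fold.

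Fatty acid synthesis and desaturation gave 3 rises (1 without HRG replicate 1) and 4 falls among 18 measured genes. Elovl5, an elongase of polyunsaturated chains, read 17345, 14557 and 16220 in HRG and 33836, 37646 and 42131 in PTN, 2.36-fold lower (adjusted p = 1.24e-05). Every PTN array was at least as high as 33836, above the highest HRG array. Elovl1, an elongase of saturated chains, rose 1.92-fold (adjusted p = 0.0112), a call lost without HRG replicate 1 (0.0535). Fads1, a desaturase acting on the same kind of chain as Elovl5, fell 2.45-fold. Scd2, a stearoyl-CoA desaturase, fell 1.97-fold on its brightest probe set, while 2 others gave log2 changes of 0.01 and 0.03. Fasn and Acly, the core of synthesis, had changes of -0.01 and -0.2 and did not pass. Among sterol genes Insig1, the sterol-regulated inhibitor of SREBP processing, fell 2.77-fold, and 4 of 19 members fell in all (2 without HRG replicate 2) while 2 rose. The rises were those of Ebp, a sterol isomerase, by 1.46-fold and Pmvk, a mevalonate pathway kinase, by 1.37-fold. Neither passed under either centring or without HRG replicate 2, HRG replicate 3 or PTN replicate 3, and 1 of them passed without BSN replicate 1, HRG replicate 1, PTN replicate 1 or PTN replicate 2. The sphingolipid enzyme Asah1, acid ceramidase, rose 2.33-fold, with a second probe set at 0.52 that did not pass. In the retinoid list Crabp2, a retinoic acid carrier, rose 2.79-fold and Rarb, a receptor that retinoic acid induces, fell 1.75-fold.

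**Figure D3:**
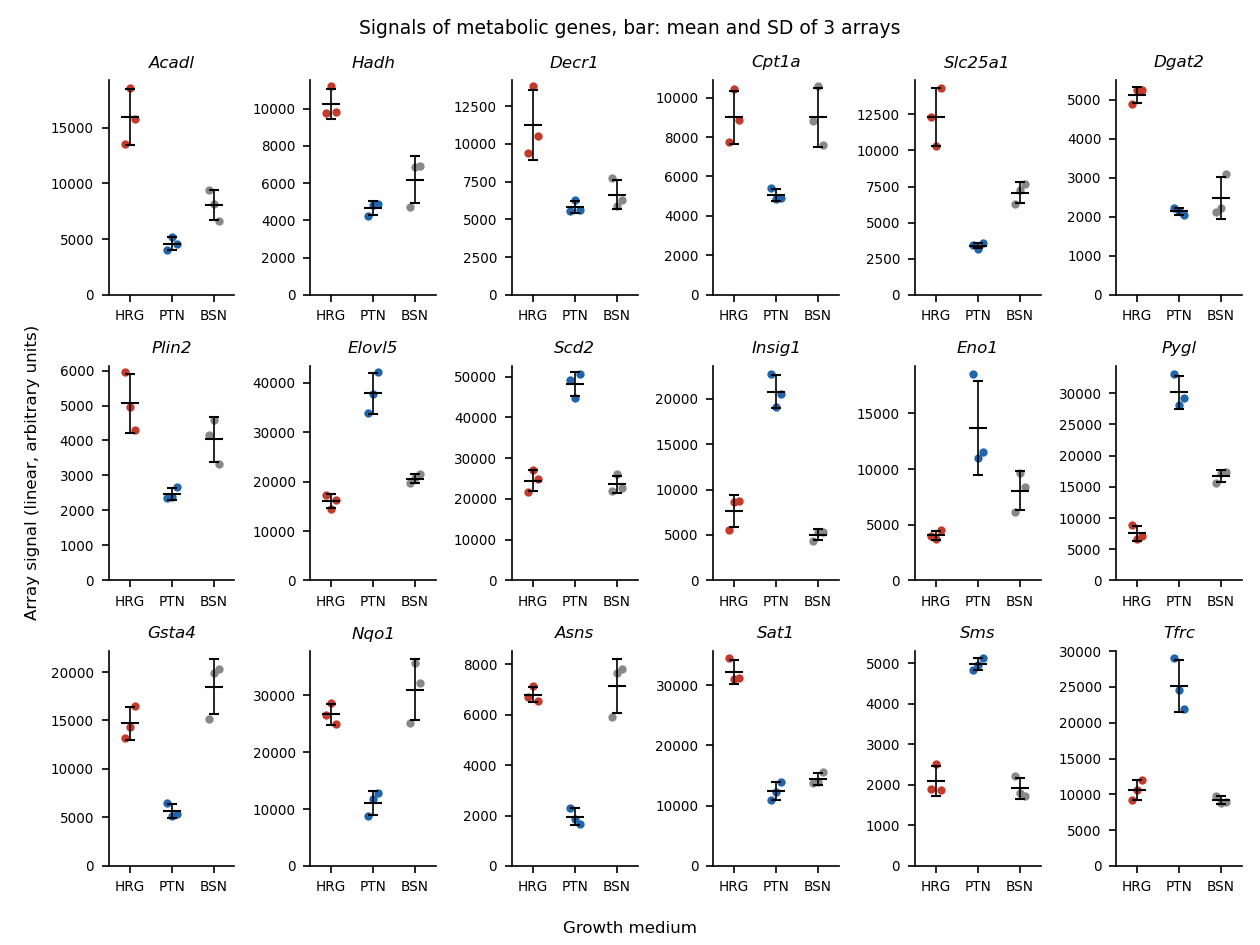
Linear array signal in HRG, PTN and BSN for 18 metabolic genes, 1 point per array, with a bar at the mean and whiskers of 1 SD (n = 3). Acadl, Hadh and Dgat2 are highest in HRG, while Elovl5, Scd2, Insig1, Eno1, Pygl, Sms and Tfrc are highest in PTN. For Cpt1a, Gsta4, Nqo1 and Asns the BSN arrays lie near or above the HRG arrays.

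Most glutathione transferases were higher in HRG. Of 14 measured glutathione transferases 10 rose and 1 fell, with a median log2 change of 0.97, and 9 to 11 rose when an array was left out. Gsta4, which acts on products of lipid peroxidation, read 13205, 14353 and 16529 in HRG and 6532, 5158 and 5372 in PTN, 2.58-fold higher (adjusted p = 3.83e-05). The groups were separate, and the BSN mean of 18483 was above that of HRG. Gstm1 rose 3.53-fold and Gsta3 2.41-fold, while the microsomal Mgst1 fell 1.47-fold. Genes of this family resemble each other, so probe sets may share signal. In the list of Nrf2 targets and thioredoxins 10 of 24 rose and 1 fell, with a median of 0.28. Nqo1, a quinone reductase, rose 2.42-fold, and the fall was that of Prdx4, a peroxiredoxin, by 1.5-fold. Akr1b8, an aldo-keto reductase, had 2648 ± 709 in HRG and 123 ± 23.7 in PTN, near background, against 2011 in BSN. The core letters of the antioxidant response element, TGACNNNGC on either strand, stood in 6 of 13 glutathione transferase promoters (46.2%), 5 of 22 of the Nrf2 list (22.7%) and 4 of 16 cholesterol synthesis promoters (25.0%). It stood in 12.2% of all promoters and 14.9% of those of measured genes. TCACNCCAC, letters of the sterol regulatory element, was also searched. It stood in 0 of 16 cholesterol synthesis promoters and in 1.13% of all promoters.

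Of 30 measured lysosomal genes 14 rose and none fell, with a median of 0.42, and 10 rose without HRG replicate 3 or after centring on all probe sets. Ctsa, a protective carboxypeptidase, had 6093 ± 689 in HRG and 2696 ± 392 in PTN. Manba, a mannosidase, rose 2.11-fold, and Lamp2, of the lysosomal membrane, 1.74-fold on its brightest probe set with a second at 0.24 that did not pass. The BSN means of Ctsa and Lamp2, 5988 and 18147, were near those of HRG.

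In amino acid metabolism Asns, asparagine synthetase, read 6708, 7138 and 6552 in HRG and 2316, 1876 and 1666 in PTN, 3.49-fold higher (adjusted p = 5.11e-06). Chac1, which degrades glutathione and is induced with Asns by amino acid shortage, read 5148, 4204 and 4562 against 1206, 1168 and 823. Neither gene had overlapping arrays, and the BSN means, 7137 and 4605, were close to the HRG means. The list of amino acid and unfolded protein stress, which holds Chac1 but not Asns, moved both ways. It had 6 rises, Chac1 included, and 4 falls among 24 (6 falls at most with an array left out). Atf3 rose 2.08-fold and Xbp1 1.75-fold, while the endoplasmic reticulum chaperones Hsp90b1 and Pdia6 fell 2.1-fold and 1.97-fold. Glud1, glutamate dehydrogenase, rose 1.86-fold, and Bckdha, of branched-chain amino acid breakdown, 2.44-fold. The serine pathway enzymes Psph and Psat1 fell 1.75-fold and 1.62-fold. Slc1a3, a glutamate transporter, fell 4.15-fold on its brightest probe set but had -0.19 on another.

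A polyamine gene of breakdown and one of synthesis moved in opposite directions. Sat1, which acetylates polyamines for export, read 34489, 30975 and 31159 in HRG and 10946, 12309 and 13888 in PTN, 2.61-fold higher (adjusted p = 6.74e-06). Sms, spermine synthase, read 1907, 2517 and 1866 against 4841, 4964 and 5129, 2.39-fold lower. The media stood apart for both, in opposite order. Odc1, the first enzyme of synthesis, did not pass (-0.23). Iron transport genes also moved in opposite directions. Tfrc, the transferrin receptor that takes iron in, read 9272, 10589 and 12012 in HRG and 29004, 24584 and 21856 in PTN. Slc40a1, ferroportin, which lets iron out, read 8618, 7111 and 7429 against 1943, 1967 and 2340, and rose 3.69-fold with both other probe sets also higher. Mt2A, a metallothionein, fell 2.76-fold.

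Few genes of protein synthesis passed. Of 39 measured ribosomal protein genes 4 rose and none fell, with a median of 0.03. After median centring 3 rose and 2 fell, and after centring on all probe sets 3 rose and 3 fell. By left-out array, 12 rose without PTN replicate 1 and 2 without HRG replicate 1, PTN replicate 2 or PTN replicate 3. Without HRG replicate 3 a single one fell. The fit with the replicate number as a block gave 7 rises and 1 fall. Rps15a rose 2.0-fold and Rpl41 1.95-fold. In ribosome assembly 4 of 24 fell (2 without HRG replicate 3), led by Gnl3, nucleostemin, at 2.16-fold. Of 20 measured cytosolic chaperones 6 rose and 5 fell (3 without HRG replicate 2 or PTN replicate 3, 8 without PTN replicate 1). Subunits of the CCT folding ring were among the falls, Cct8 by 1.59-fold and Cct6a by 1.47-fold, and the heat shock cochaperone Bag3 rose 2.08-fold.

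**Figure D4:**
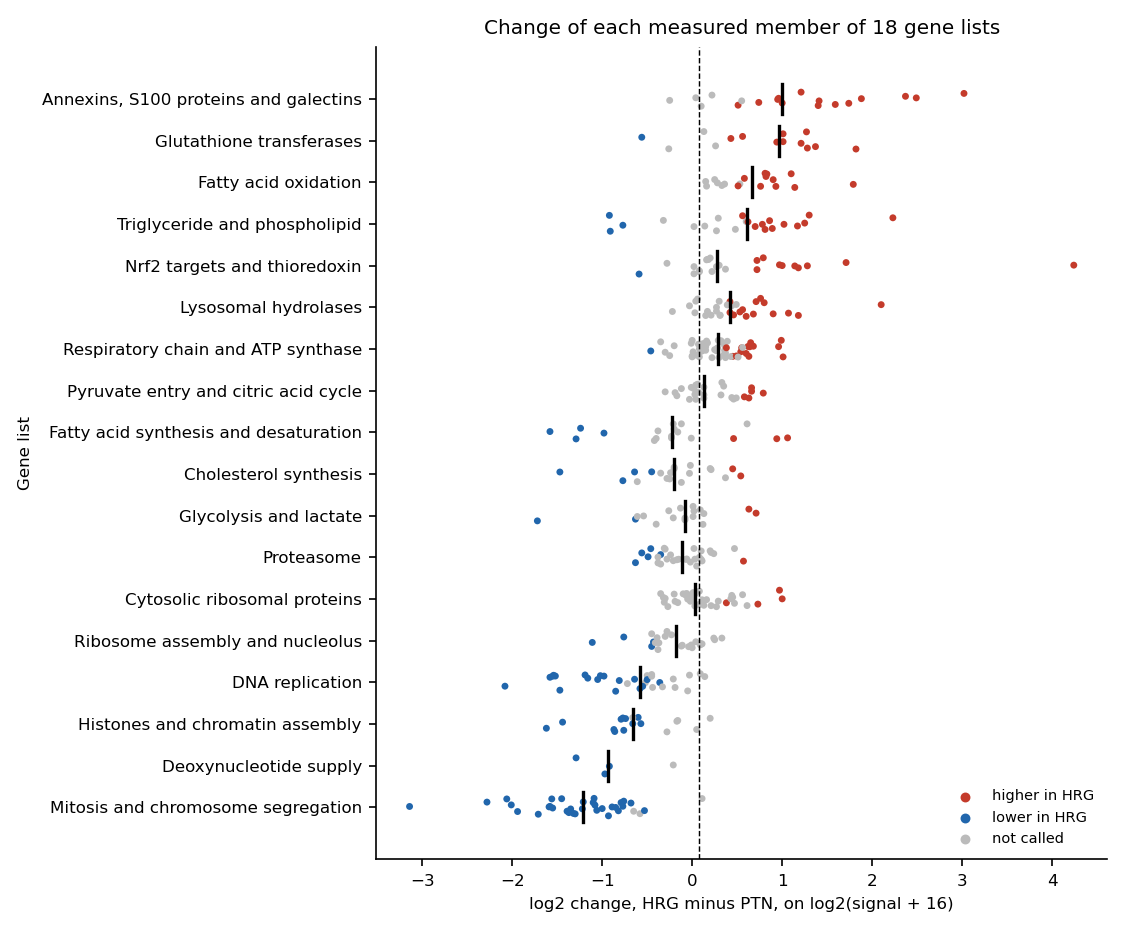
Change of each measured member of 18 gene lists, as HRG minus PTN on log2(signal + 16), coloured red where higher, blue where lower and grey where the gene did not pass. Black ticks mark list medians and the dashed line the median of all genes, 0.08. Mitosis has its median at -1.21, and annexins, S100 proteins and galectins at 1.0.

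Annexins, S100 proteins and galectins were mostly higher in HRG. Of 19 measured members 14 rose and none fell, with a median of 1.0, and 12 to 15 rose with 1 array left out. Anxa2, a membrane-binding annexin, read 38320, 29238 and 31755 in HRG and 7688, 8856 and 10336 in PTN, 3.69-fold higher (adjusted p = 2.21e-06). Its partner S100a10 rose 2.32-fold. S100a6 rose 5.63-fold, S100a11 3.01-fold and Anxa4 2.65-fold, with another probe set of Anxa4 at 2.32 on the log2 scale. Lgals4 had 2527 ± 482 in HRG and 474 ± 69.0, near background, in PTN. Anxa1 and Anxa8 did not pass.

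Matrix genes that separated the media were mostly higher in PTN. Of 20 measured collagens and collagen enzymes 4 fell in HRG and 1 rose. Without PTN replicate 1 there were 7 falls, and without it, PTN replicate 2 or BSN replicate 3 there were 2 rises. Plod2, which hydroxylates collagen lysines, read 2621, 2679 and 2723 in HRG and 7514, 6968 and 6745 in PTN, and P4ha1, of prolyl hydroxylation, fell 2.98-fold. Arrays of Plod2 spanned little within each medium and did not meet. Col2a1, the main collagen of cartilage, had on its brightest probe set 238 ± 178 in HRG, near background, and 4453 ± 1386 in PTN. Col18a1, a basement membrane collagen, rose 1.89-fold. Among 21 basement membrane genes 7 fell and 3 rose (5 without PTN replicate 1). Lama4, a laminin chain, had 249 ± 196 in HRG, near background, and 4188 ± 650 in PTN, and Lama1, Fn1 and Fbln2 fell 2.71-fold, 2.11-fold and 2.1-fold. Sulf2, which removes sulfate from heparan sulfate, fell 2.87-fold and Chsy1, of chondroitin synthesis, 2.01-fold. Among 13 integrins 1 rose, and none did without HRG replicate 1, HRG replicate 3, PTN replicate 2 or PTN replicate 3. The neuronal genes Dcx and Map2 fell beside them, to 57.7 ± 22.6 and 611 ± 154 in HRG, both near background, from 1123 ± 210 and 2651 ± 793 in PTN, the only 2 of 5 measured neuronal markers that passed. Gap43, of growing axons, had 1459 ± 276 in HRG and 1456 ± 329 in PTN, and Elavl4 and Tubb3, with log2 changes of -0.69 and -0.44, did not pass. The other 6 markers were not measured, and Stmn2, Nefl, Snap25 and S100b among them had higher means in HRG, all near background.

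Of 28 measured transport genes of the mature duct 11 rose and 5 fell (7 and 3 with the filter at the 60th percentile). Aqp3, a basolateral water and glycerol channel, read 7894, 10236 and 10875 in HRG and 1006, 1066 and 1971 in PTN, 7.38-fold higher (adjusted p = 4.16e-06). Aqp4 rose 3.56-fold. Aqp2, the vasopressin-regulated apical water channel, went the other way, with 219, 167 and 165 in HRG, near background, and 1685, 720 and 2189 in PTN. Arrays of HRG and PTN did not overlap for these channels, and the BSN means of Aqp3, Aqp4 and Aqp2 were 524, 4656 and 139. Nr3c2, the mineralocorticoid receptor, rose 2.22-fold, Scnn1b, an epithelial sodium channel subunit, 2.16-fold, and Hsd11b2, which protects that receptor from glucocorticoid, 2.05-fold. Slc12a2, a sodium, potassium and chloride cotransporter, fell 3.89-fold. One stratified-epithelium gene stood out, Sprr1a, a cornified envelope protein, with 27178, 22411 and 15845 in HRG and 788, 417 and 477 in PTN, near background. Krt5, Krt10, Sfn and Perp, the other measured members of its list, did not pass.

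Transcripts of Ptn itself read 1434, 897 and 764 in HRG and 3814, 4387 and 3940 in PTN, 4.01-fold lower in HRG (adjusted p = 4.47e-05), and those of Mdk, its relative midkine, fell 3.93-fold. The probe reads the buds' own RNA, not the added protein. Erbb2, a receptor subunit for heregulin, did not pass (log2 change 0.12, SE 0.18). Igf2, a fetal growth factor, read 13071, 12257 and 10780 in HRG and 2518, 3946 and 3192 in PTN, 3.78-fold higher (adjusted p = 1.26e-05). It was higher on every HRG array, as its imprinted neighbour H19 was. Of 12 imprinted genes measured 3 rose and 5 fell. One of the rises, Igf2r, was 1.73-fold higher on its brightest probe set, while its other probe set was called lower (log2 change -0.40). Grb10, an inhibitor of insulin receptor signalling, fell 2.65-fold and Mest 2.69-fold. Of 6 measured genes on the list of the IGF system 1 rose and 3 fell. The IGF-binding proteins Igfbp2 and Igfbp4 fell 3.87-fold and 2.36-fold. Another, Igfbp3, was the rise, with 760 ± 126 in HRG and 347 ± 192, near background, in PTN (adjusted p = 0.0385). That call was lost under 11 alternatives.

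Of 26 measured BMP and TGF-beta genes 6 rose and 4 fell (2 without HRG replicate 2 or HRG replicate 3), with a median of 0.03, and of 22 Wnt genes 3 rose and 5 fell, with a median of -0.04. Grem1, which captures BMPs, read 3886, 3208 and 4250 in HRG and 372, 655 and 1050 in PTN, 5.78-fold higher (adjusted p = 3.88e-05). Bmp3 rose 3.43-fold, and Id1 and Id2, targets of BMP signalling, rose 2.36-fold and 2.13-fold. Smad5, which carries BMP signals to the nucleus, fell 1.72-fold. Ltbp1, which stores latent TGF-beta in the matrix, had 424 ± 125 in HRG, near background, and 2214 ± 312 in PTN. No HRG array of Grem1 overlapped PTN. Wnt4 had 2146 ± 313 in HRG and 263 ± 231, near background, in PTN, whereas Wnt5b had 34.3 ± 3.49, near background, in HRG and 769 ± 100 in PTN. Lgr5, a Wnt target and R-spondin receptor, fell 3.14-fold. Spry1 and Spry2, feedback inhibitors of receptor tyrosine kinases, fell 3.26-fold and 2.18-fold. Among immediate early factors Klf5 rose 2.58-fold and Klf9 2.01-fold, with 6 of 15 rising and none falling, while 2 fell without PTN replicate 3, under either centring or under quantile normalization, and 1 without PTN replicate 1 or with the replicate number as a block.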

How the data were processed

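RNA of cultured buds was amplified by 2 rounds of in vitro transcription and hybridised to Affymetrix rat arrays, per the labels' protocols. The authors deposited linear signal intensities made with GCOS, per the submitters' processing notes; for the version and scaling, nothing is stated in the sources used. No depth applies to arrays, whose number limits the precision. Of 15923 probe sets 57 controls were left out, and 10106 passed the filter. Of all 15923 probe sets, controls included, 12789 had 1 gene symbol, 312 several and 2822 none. Models were fitted with limma 3.58.1 in R 4.3.3 (lmFit, eBayes with an intensity trend) on log2(signal + 16) of all 9 arrays, contrast HRG minus PTN, with Benjamini-Hochberg adjustment over all tested probe sets and a threshold of 0.05. The script was tested on simulated data. The series design calls the arrays biological replicates.

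The 61 gene lists, their members and the rule for named genes were chosen with earlier results of these data known. The rule took 4 given markers, the 12 largest rises and falls among separate, bright probe sets, up to 3 highest and 3 lowest members by t of each list, and Ret, Cxcr4, Ptn, Mdk, Erbb2 and Erbb3. The text names a part of these, with some list members chosen after their values were seen. Pairing was checked by the correlation of same-numbered arrays' deviations from their group means, 0.266, 0.332 and 0.118. All exceed 0.1, a hint of pairing that rests on the values, as no label states it. The reported fit and the exact tests are unpaired, and the replicate block is an alternative. Promoters were read from RefSeq's table. Alternatives were other scalings, pseudocounts of 1 and 64, other filters, no trend, array weights, 6 arrays only, the replicate block and each array left out; centring on all probe sets was added after seeing the data. Figures used Python 3.11.15 and matplotlib 3.10.9.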

Additional observations from a re-analysis of the deposited data

How the results depend on the processing

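The count of probe sets called between HRG and PTN, 2603, stayed within 1.5 times of itself under all 20 alternatives, from 1882 without HRG replicate 1 to 3460 with array weights, and left-out arrays gave 1882 to 3109. The higher calls moved most: 1423 became 943 after centring on all probe sets, an alternative chosen after seeing the data, and left-out arrays gave 948 to 1797; lower calls were 890 to 1312. Centring on the tested probe sets split the calls as 1077 higher and 1418 lower, quantile normalization as 1210 and 1249, and centring on all probe sets as 943 and 1452, against 1423 and 1180. These scalings moved the median log2 change of all genes by -0.08, -0.05 and -0.11. The fit with the replicate number as a block called 2690 and changed no call among the 252 genes of the naming rule. Of 243 of them that passed, 197 passed in every alternative that tested them, and no direction reversed. The 3 arrays a group and the spread of single arrays, as in the counts without HRG replicate 1 or PTN replicate 1, limit precision, and dim genes carry no fold.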
